A study of Mus musculus with 12 samples.

Results

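The genes described here are 9 components of interleukin-6 family signalling in mouse skeletal muscle: the receptor chains Il6ra, Il6st, Osmr and Lifr, the kinase gene Jak2, the transcription factor gene Stat3, and the feedback inhibitor genes Socs2, Socs3 and Cish. They were taken by gene symbol from the platform annotation of an Affymetrix whole-transcript array, 9 of 22180 genes named by a single symbol, and for a gene with several transcript clusters the brightest, by its mean of 12 arrays, was read. Plantaris muscle was compared between REDD1 knockout and wild-type mice, which either stayed sedentary or did aerobic exercise once, with the muscle taken 1 hour after it. The 4 groups of 3 arrays were knockout exercised, knockout sedentary, wild-type exercised and wild-type sedentary. All mice were male and 12 weeks old, and food was withheld from all of them for 3 hours before the exercise. REDD1, the product of Ddit4, is a stress-induced inhibitor of the growth-promoting kinase complex mTORC1. The labels name neither the part of Ddit4 that was deleted nor the tissue range of the deletion, and they state no pooling, litter or hybridisation batch.

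Interleukin-6 and most of its relatives are secreted proteins that bind receptor chains such as the products of Il6ra, Osmr or Lifr, together with the shared signalling chain gp130, the product of Il6st. Receptor assembly activates Janus kinases, which phosphorylate STAT3, and STAT3 then enters the nucleus and switches on target genes that include its own inhibitor Socs3. Contracting muscle is a known source of interleukin-6, whereas Socs2 and Cish are best known as STAT5-driven brakes on growth hormone and related cytokine receptors.

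Promoter sequences are shown for the only member that passed the test in any comparison, Il6ra, and for the feedback genes whose promoters held a STAT motif. RefSeq promoters (build GRCm38.p6, 250 bases before the start and 50 from it) were found for 8 of the 9 members, 9 promoters in all because Lifr had 2. None was found for Socs2, whose promoter was therefore not searched for any motif. The palindrome TTCNNNGAA, bound by STAT proteins, was searched on both strands and was present in Socs3 and Cish, and in 8.3% of all 32851 promoters. The E-box CACGTG was present in Il6ra alone among the members and in 7.15% of all promoters. The cyclic AMP response element TGACGTCA, in 1.79% of all promoters, and the full palindromic glucocorticoid receptor element, in 0.00913%, matched no member promoter. The Il6ra promoter (chr3:89913147-89913446, minus strand) carries its E-box 24 bases before the start. The Socs3 promoter (chr11:117969317-117969616, minus strand) carries its STAT motif with the first base 154 bases before the start. The Cish promoter (chr9:107296409-107296708, plus strand) carries 2 STAT motifs, whose first bases are bases 1 and 12 from the start. Capitals mark these matches, which are letters found in the window and were not examined as binding sites.
Il6ra: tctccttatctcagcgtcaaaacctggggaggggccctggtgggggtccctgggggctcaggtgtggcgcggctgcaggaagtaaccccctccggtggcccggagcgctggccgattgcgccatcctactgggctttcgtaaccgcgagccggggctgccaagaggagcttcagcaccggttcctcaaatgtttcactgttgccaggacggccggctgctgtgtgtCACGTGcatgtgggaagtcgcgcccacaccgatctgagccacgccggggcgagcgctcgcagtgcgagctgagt
Socs3: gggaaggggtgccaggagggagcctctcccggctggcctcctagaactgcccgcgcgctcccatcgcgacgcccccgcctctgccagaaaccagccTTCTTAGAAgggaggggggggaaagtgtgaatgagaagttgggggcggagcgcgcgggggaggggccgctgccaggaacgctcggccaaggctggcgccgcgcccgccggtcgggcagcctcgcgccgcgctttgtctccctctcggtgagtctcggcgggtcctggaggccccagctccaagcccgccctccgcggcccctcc
Cish: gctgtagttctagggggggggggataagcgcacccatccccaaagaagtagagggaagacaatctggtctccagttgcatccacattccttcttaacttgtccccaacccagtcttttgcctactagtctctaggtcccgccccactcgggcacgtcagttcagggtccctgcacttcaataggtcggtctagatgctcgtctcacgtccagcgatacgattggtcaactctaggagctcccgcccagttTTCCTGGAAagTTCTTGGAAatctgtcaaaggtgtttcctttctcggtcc

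Levels are given on a log2 scale as deposited, on which a difference of 1 is a doubling of signal. A level is meaningful for 1 gene across arrays and was not compared between genes. Of the 22180 genes, 13747 exceeded the table median of 4.56 on at least 3 arrays and were tested with limma, and 9 of 9 members were among them, each above that median on 12 of 12 arrays. A gene is said to have risen or fallen where its Benjamini-Hochberg adjusted p over all tested genes was under 0.05. Array medians lay between 4.52 and 4.60, and the files record no read depth, so precision is set by the 3 arrays of each group. Muscle fibre markers, 7 of 7 tested, were at 12.4 to 13.6 on every array. Ddit4 averaged 6.32 ± 0.54 in knockout exercised, 5.28 ± 0.18 in knockout sedentary, 8.69 ± 0.33 in wild-type exercised and 5.99 ± 0.15 in wild-type sedentary muscle (SD, n = 3 each). It was 5.18-fold lower in the knockout after exercise (limma adjusted p = 0.000110) and 1.64-fold lower among sedentary mice, which was not called (limma adjusted p = 0.411). Averaged over exercise states it was 2.91-fold lower (limma adjusted p = 0.000137), although whether its probes lie within the deleted part is unknown. Over the tested genes, replicate 1 of the wild-type exercised group and replicate 3 of the knockout sedentary group had the lowest median correlations with the other 11 arrays, 0.978 and 0.979, against 0.981 to 0.986 for the rest. Replicate numbers follow the order of deposit and pair nothing. The labels describe each sample as coming from a mouse and do not say outright that each array is a different animal, so the p-values measure the spread between these samples.

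**Figure D1:**
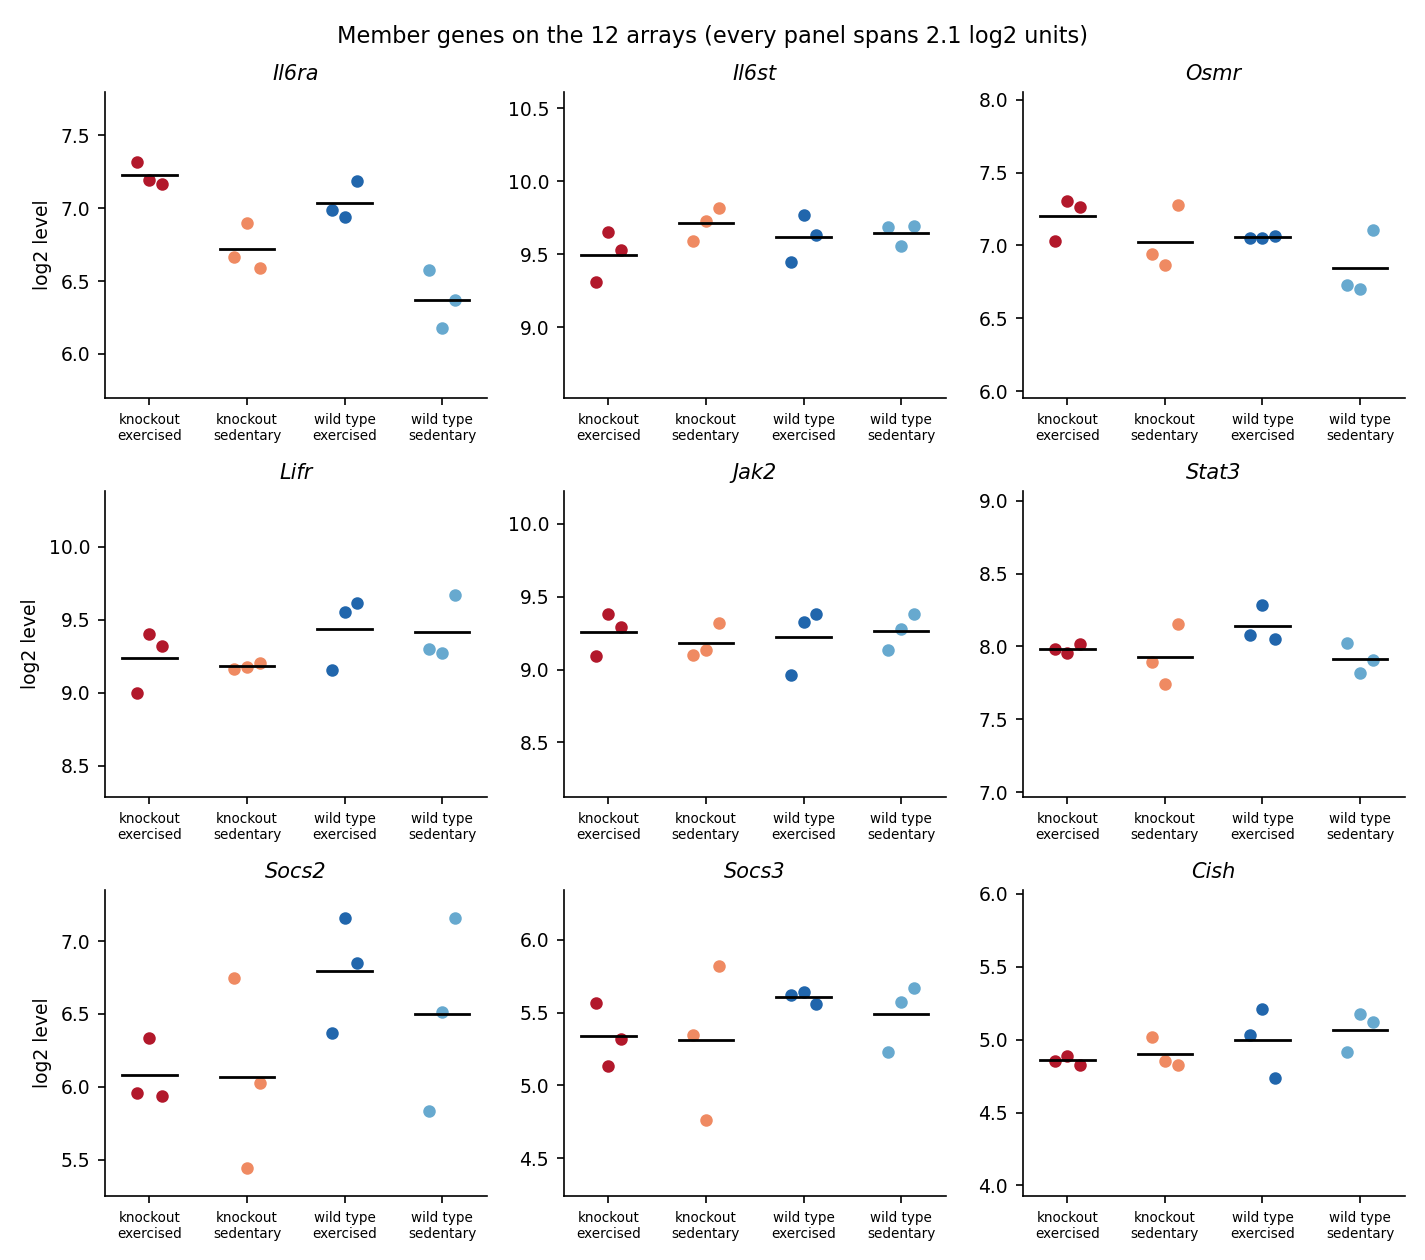
Log2 level (y axis) of the 9 genes in the 4 groups; each point is an array, in order of replicate number from left to right, and each bar is a group mean (n = 3). Every panel spans the same number of log2 units; for Il6ra, all 6 exercised arrays, at 6.94 or more, sit above all 6 sedentary arrays, at 6.90 or less.

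Exercise was followed by a higher level of Il6ra, the gene of the interleukin-6 binding chain, which is needed for the classical response to this cytokine. Knockout exercised muscle read 7.32, 7.20 and 7.16 and knockout sedentary muscle read 6.67, 6.90 and 6.59. Wild-type exercised muscle read 6.98, 6.94 and 7.19, against 6.57, 6.17 and 6.37 in wild-type sedentary muscle. The exercised arrays were all higher than the sedentary arrays, within each genotype and across both. Averaged over genotypes, Il6ra rose by 0.59 (SE 0.09, 95% interval 0.40 to 0.77, 1.50-fold, limma adjusted p = 0.00176). It was the 1 of 9 members called higher in that comparison, in which 1.09% of all tested genes were called higher. Groups without overlap in that direction, as in Il6ra, were seen in 0.938% of the tested genes.

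Within wild type Il6ra rose by 0.66 (SE 0.12, 95% interval 0.40 to 0.93, 1.59-fold, limma adjusted p = 0.0176), again the 1 of 9 members called higher, beside 0.473% of all tested genes. This call rested on single arrays: it was lost on leaving out replicate 2 or replicate 3 of the wild-type sedentary group, or replicate 3 of the wild-type exercised group, while the estimate over all arrays left out in turn ranged from 0.57 to 0.77. Within the knockout the difference for Il6ra was 0.51 (SE 0.12, 95% interval 0.25 to 0.77, 1.42-fold), with limma adjusted p = 0.118, so it was not called. In that comparison 0 of 9 members and 0.276% of all tested genes were called by limma in either direction, while 1 member, Il6ra, and 8.93% of all tested genes had an unadjusted p under 0.05. The knockout exercised arrays lay above the knockout sedentary arrays without overlap for Il6ra and for 7.13% of all tested genes. The knockout and wild-type effects on Il6ra differed by -0.15 (knockout minus wild type, SE 0.17, 95% interval -0.52 to 0.21, limma adjusted p = 0.997). That difference of effects was called for 0 of 9 members and for 0 tested genes (0%), with 0 members and 620 tested genes (4.51%) at an unadjusted p under 0.05. Ddit4 itself differed by -1.66 (SE 0.31) and was not called (limma adjusted p = 0.633), and no tested gene had a smaller adjusted p. The absence of calls in this comparison thus does not show that the effects were equal. A call in wild type without one in the knockout is therefore not a measured difference between genotypes for Il6ra.

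With the 2 arrays of lowest correlation both left out, Il6ra was still called averaged over genotypes at 0.57 (limma adjusted p = 0.00650) and in wild type at 0.69 (limma adjusted p = 0.0350). The order of the Il6ra group means was knockout exercised 7.23 ± 0.08, wild-type exercised 7.04 ± 0.13, knockout sedentary 6.72 ± 0.16 and wild-type sedentary 6.37 ± 0.20 (SD, n = 3 each). The upper pair overlapped, whereas neither wild-type exercised and knockout sedentary nor the 2 sedentary groups did. Among sedentary mice Il6ra was 0.35 higher in the knockout than in wild type (95% interval 0.08 to 0.61), which did not pass correction (limma unadjusted p = 0.0131, adjusted p = 0.492). Groups without overlap in that direction were seen in 5.35% of all tested genes.

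In whole muscle, more cells of a type and more RNA per cell cannot be told apart, and Il6ra is known from leukocytes as well as from muscle. Of 9 macrophage and leukocyte markers, 8 were tested and 0 were called for exercise averaged over genotypes, beside 1.6% of all tested genes. At an unadjusted p under 0.05, 1 was higher averaged and 1 in wild type, beside 11.2% and 8.21% of all tested genes in either direction. In the knockout 1 was lower, beside 8.93% in either direction. Of the 8 markers, 6 had positive estimates in wild type and 1 in the knockout. The mean of their levels, each centred on its own mean over the 12 arrays, was -0.13 to -0.02 in knockout exercised, -0.19 to 0.31 in knockout sedentary, -0.04 to 0.11 in wild-type exercised and -0.19 to 0.01 in wild-type sedentary muscle. These ranges overlapped between exercised and sedentary arrays in both genotypes. Of 6 neutrophil markers 4 (S100a8, S100a9, Ly6g and Retnlg) were too dim to test. Endothelial markers did move with exercise, opposite in sign to Il6ra: their centred mean level was -0.30 to -0.06 in knockout exercised, 0.10 to 0.23 in knockout sedentary, -0.11 to -0.07 in wild-type exercised and 0.09 to 0.18 in wild-type sedentary muscle. All 7 were measured on every array and had negative estimates averaged over genotypes. Averaged, 2 of them fell, the vascular growth factor receptor gene Kdr and the junction gene Cdh5, beside 0.509% of all tested genes called lower. In that comparison Cdh5 was called under 6 of 24 alternatives and Kdr under 24 of 24. Within wild type 2 of the 7 estimates were positive and 1 gene, Kdr, was called lower, beside 0.0946% of all tested genes. In the knockout, 2 more lists separated exercised from sedentary arrays, which overlapped in wild type. Fibroblast and matrix markers, 7 of 7 tested, were at -0.29 to -0.20 in knockout exercised against -0.13 to 0.89 in knockout sedentary muscle, and at -0.10 to 0.13 in wild-type exercised against -0.14 to -0.04 in wild-type sedentary muscle. Smooth muscle and pericyte markers, 5 of 5 tested, were at -0.27 to -0.13 in knockout exercised against 0.10 to 0.19 in knockout sedentary muscle, and at -0.07 to 0.22 in wild-type exercised against -0.11 to 0.07 in wild-type sedentary muscle. In the knockout 0 genes of either list were called by limma, while 5 and 2 of them were lower at an unadjusted p under 0.05. The part of these cell types in the Il6ra result was not tested.

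**Figure D2:**
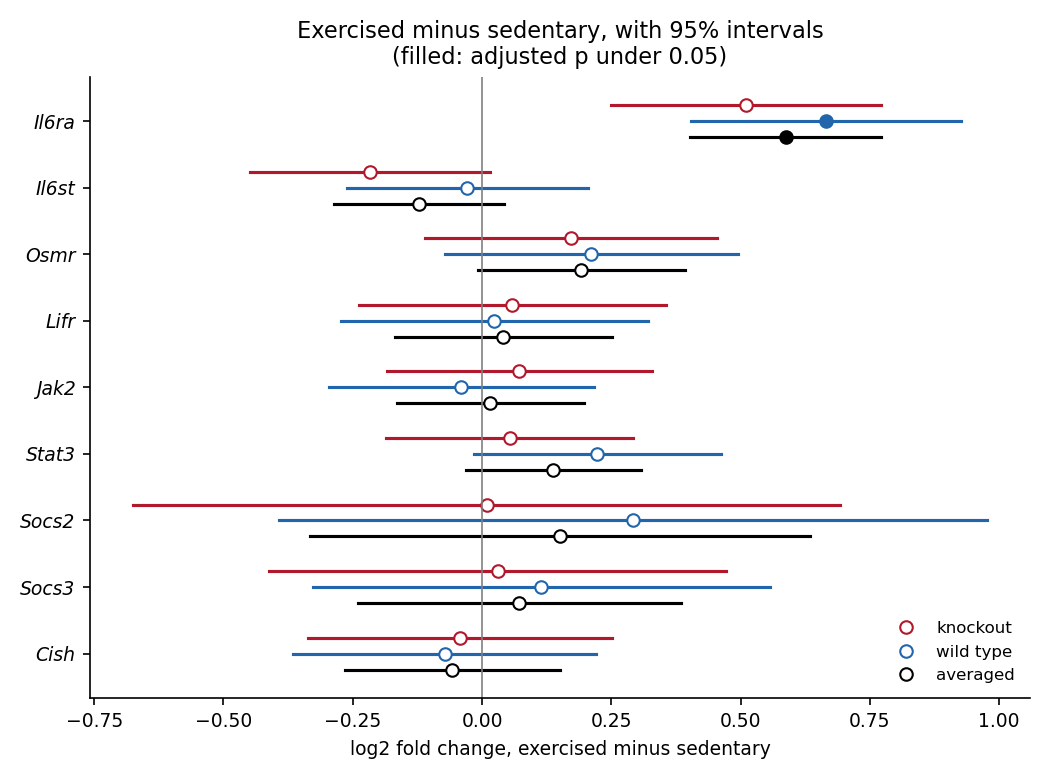
Log2 fold change after exercise (x axis, exercised minus sedentary) for each of the 9 genes, in the knockout, in wild type and averaged over both; lines are 95% intervals from limma and filled points were called at adjusted p under 0.05. Il6ra in wild type and averaged is filled; the intervals of the other 8 genes all include 0.

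The remaining receptor chains were not called after exercise. Il6st, the gp130 gene shared by the receptors of most of these cytokines, read 9.31, 9.65 and 9.53 in knockout exercised, 9.59, 9.72 and 9.82 in knockout sedentary, 9.44, 9.77 and 9.63 in wild-type exercised and 9.68, 9.56 and 9.69 in wild-type sedentary muscle. The groups overlapped, and the knockout exercised group had the lowest mean. The difference averaged over genotypes was -0.12 (95% interval -0.29 to 0.04, limma adjusted p = 0.609).

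Osmr, the oncostatin M receptor gene, read 7.03, 7.30 and 7.26 in knockout exercised, 6.94, 6.87 and 7.28 in knockout sedentary, 7.05, 7.05 and 7.07 in wild-type exercised and 6.73, 6.70 and 7.11 in wild-type sedentary muscle. In each sedentary group replicate 3 was the highest array; it lay among the exercised values of its genotype in the knockout and above them in wild type. Averaged over genotypes the difference was 0.19 (95% interval -0.01 to 0.39, limma adjusted p = 0.472). Lifr, the leukaemia inhibitory factor receptor gene, had group means of 9.24 ± 0.22 in knockout exercised, 9.18 ± 0.02 in knockout sedentary, 9.44 ± 0.25 in wild-type exercised and 9.42 ± 0.22 in wild-type sedentary muscle (SD, n = 3 each). Exercised and sedentary arrays overlapped in both genotypes (averaged difference 0.04, 95% interval -0.17 to 0.25).

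Among the signalling genes, Jak2, which encodes a kinase bound to the receptor chains, had group means of 9.26 ± 0.15 in knockout exercised, 9.18 ± 0.12 in knockout sedentary, 9.23 ± 0.23 in wild-type exercised and 9.26 ± 0.12 in wild-type sedentary muscle (SD, n = 3 each). Its averaged exercise difference was 0.02 (95% interval -0.17 to 0.20). Stat3, which encodes the transcription factor at the end of the pathway and is itself a target of STAT3, read 7.98, 7.95 and 8.02 in knockout exercised, 7.89, 7.75 and 8.15 in knockout sedentary, 8.08, 8.29 and 8.05 in wild-type exercised and 8.02, 7.82 and 7.91 in wild-type sedentary muscle. All 3 wild-type exercised arrays lay above all wild-type sedentary and all knockout exercised arrays. Neither difference passed correction: exercise in wild type gave 0.22 (95% interval -0.02 to 0.46, limma adjusted p = 0.660) and knockout against wild type after exercise gave -0.16 (95% interval -0.39 to 0.08, limma adjusted p = 0.931). Groups without overlap were also seen in 5.75% of all tested genes for the wild-type exercise comparison in the higher direction and in 5.67% for knockout against wild type after exercise in the lower direction.

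The feedback inhibitor genes showed no called exercise response 1 hour after the bout. Socs3, the inhibitor that binds gp130 and the kinase, read 5.56, 5.13 and 5.32 in knockout exercised, 5.35, 4.76 and 5.82 in knockout sedentary, 5.62, 5.64 and 5.56 in wild-type exercised and 5.23, 5.58 and 5.67 in wild-type sedentary muscle. The wild-type exercised arrays were close together and the knockout sedentary arrays spread over 1.05, so that exercised and sedentary values overlapped in each genotype. The averaged difference was 0.07 (95% interval -0.24 to 0.38, limma adjusted p = 0.914), an interval whose upper end lies well under a doubling. Cish read between 4.83 and 4.89 in knockout exercised, 4.82 and 5.02 in knockout sedentary, 4.74 and 5.21 in wild-type exercised and 4.91 and 5.17 in wild-type sedentary muscle. These ranges overlapped, and the averaged difference was -0.06 (95% interval -0.27 to 0.15). Socs2, read from its brighter transcript cluster, gave an averaged difference of 0.15 with the widest interval of the 9 genes (-0.33 to 0.63).

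Knockout and wild type were compared within each exercise state and averaged over both, and 0 of 9 members were called by limma in any of these comparisons. The background was 0.175% of tested genes called after exercise, 0.138% among sedentary mice and 0.546% averaged. Unadjusted p was under 0.05 for 1 member after exercise (Socs2 from its brighter cluster, lower in the knockout) and 1 among sedentary mice (Il6ra, higher). Averaged, it was under 0.05 for 3 (Il6ra higher, Socs2 and Lifr lower). The same threshold was passed by 6.58%, 7.7% and 9.36% of all tested genes in those comparisons. Of the members' averaged estimates, 7 of 9 were negative, with a median of -0.07 beside -0.01 for all tested genes.

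Socs2, Socs3 and Cish each had lower group means in both knockout groups than in both wild-type groups, with 0 of the 3 called. Lifr had the same split of means, and the share of all tested genes with such a split was not counted. A second, dimmer Socs3 cluster, below the table median on 12 of 12 arrays, gave an averaged knockout difference of the other sign, 0.03. Of the 5 other SOCS genes, 3 had positive and 2 negative averaged knockout estimates, with a median of 0.02. Socs2 read 5.96, 6.34 and 5.94 in knockout exercised, 6.74, 5.44 and 6.02 in knockout sedentary, 6.37, 7.16 and 6.85 in wild-type exercised and 5.83, 6.51 and 7.16 in wild-type sedentary muscle. The exercised genotypes did not overlap, as for 5.67% of all tested genes in that direction, and each sedentary group spread over at least 1.30. The knockout difference after exercise was -0.71 (95% interval -1.40 to -0.03, limma unadjusted p = 0.0418, adjusted p = 0.737) and the averaged difference was -0.57 (95% interval -1.06 to -0.09, limma adjusted p = 0.417). Socs3 gave -0.22 averaged (95% interval -0.54 to 0.09, limma adjusted p = 0.704), and Cish gave -0.15 (95% interval -0.36 to 0.05, limma adjusted p = 0.689).

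The brighter Socs2 cluster, the 1 read above, stands among genes of another chromosome; 2 transcript clusters carry the symbol. Array identifiers run in genome order for most genes, and of the 8 named genes nearest by identifier to the brighter Socs2 cluster, 0 lie on the chromosome of Socs2. Those nearest to the dimmer cluster, between Cradd and Mrpl42, lie on it in 8 of 8 cases. The dimmer cluster read 5.19, 5.24 and 5.14 in knockout exercised, 4.95, 5.10 and 5.39 in knockout sedentary, 5.28, 5.75 and 5.42 in wild-type exercised and 5.24, 5.21 and 5.69 in wild-type sedentary muscle. Its exercised genotypes also did not overlap, again beside 5.67% of all tested genes. The knockout difference was smaller, -0.29 after exercise (limma unadjusted p = 0.108, adjusted p = 0.896) and -0.26 averaged (limma unadjusted p = 0.0479, adjusted p = 0.596). These p-values come from the fit of all transcript clusters that passed the filter. In that fit the brighter cluster had a limma unadjusted p of 0.0681 after exercise, so neither cluster was under 0.05 there. This second reading was added after the data were seen and neither cluster was called.

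Lifr was lower in knockout sedentary muscle, at 9.16, 9.18 and 9.20, than in wild-type sedentary muscle, at 9.30, 9.27 and 9.67. These groups did not overlap, as for 7.73% of all tested genes in that comparison and direction, and the difference was -0.23 (95% interval -0.53 to 0.06, limma adjusted p = 0.745). Averaged over exercise states it was -0.22 (95% interval -0.43 to -0.01, limma unadjusted p = 0.0443, adjusted p = 0.514).

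**Figure D3:**
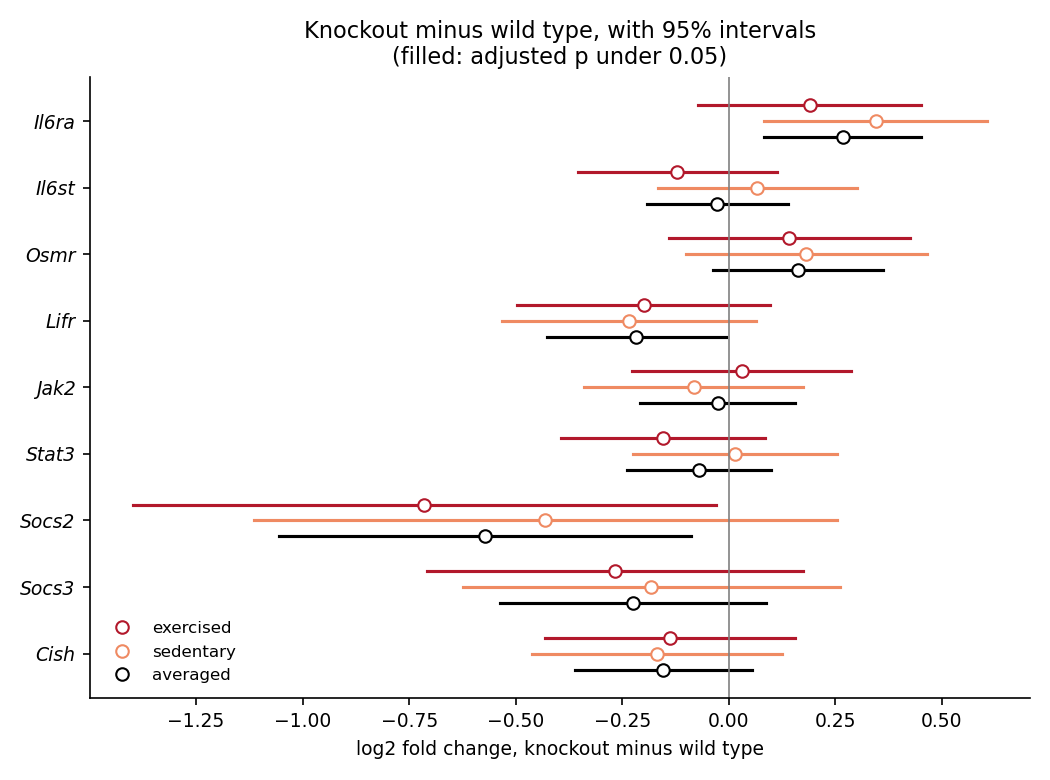
Log2 fold change between genotypes (x axis, knockout minus wild type) for each of the 9 genes, after exercise, in sedentary mice and averaged over both; lines are 95% intervals from limma. No point is filled because no member was called; the averaged intervals of Socs2 and Lifr lie below 0 and that of Il6ra above it.

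Within groups, some members shared their high and low arrays. The cases below were picked after all pairs of members were compared. The share of pairs of other tested genes with such matches was not counted. Some other pairs of members matched little: Stat3 and Jak2 shared their highest array in 1 of 4 groups and their lowest in 0. Lifr, Jak2 and Osmr had their highest value on the same array in 4 of 4 groups, which was replicate 2 for knockout exercised and replicate 3 for knockout sedentary, wild-type exercised and wild-type sedentary muscle. Il6st and Lifr had their lowest value on the same array in 4 of 4 groups, replicate 1 in all but wild-type sedentary muscle, where it was replicate 2. Il6ra did not follow them: its highest arrays were replicates 1, 2, 3 and 1 of knockout exercised, knockout sedentary, wild-type exercised and wild-type sedentary muscle. Replicates 1 of the wild-type exercised and knockout exercised groups also had the largest median absolute deviation from the gene medians over all tested genes, 0.143 and 0.123, against 0.0864 to 0.112 for the other arrays. Replicate 2 of the wild-type sedentary group, the lowest array of Il6st and Lifr there, went the other way. It had the smallest deviation, 0.0864, and the highest median correlation with the other 11 arrays, 0.986. The part of array quality in this shared pattern was not tested.

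The genes whose levels most resembled Il6ra over the 12 arrays, among 12551 tested genes with a name, were Trp53inp1, Tinagl1 and Wbp1l. Trp53inp1, a p53-induced gene, had a Pearson r of 0.939 and a Spearman rho of 0.930 over the 12 arrays. Tinagl1, which encodes a matrix protein, had r 0.928 and rho 0.944, and Wbp1l had r 0.927 and rho 0.881. All 12 points share the exercise grouping, so r was also taken within the 6 exercised and the 6 sedentary arrays: it was 0.670 and 0.809 for Trp53inp1, 0.969 and 0.709 for Tinagl1, and 0.951 and 0.874 for Wbp1l. These correlations describe the arrays and were chosen as the highest of many. The values within 6 arrays use the same arrays that picked the genes, and each set of 6 pools both genotypes. They are therefore not a separate check of the resemblance. Trp53inp1 rose by 0.70 averaged over genotypes (limma adjusted p = 0.000408) and Tinagl1 rose by 0.90 (limma adjusted p = 1.99e-05). Wbp1l differed by 0.35 and was not called (limma adjusted p = 0.109).

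**Figure D4:**
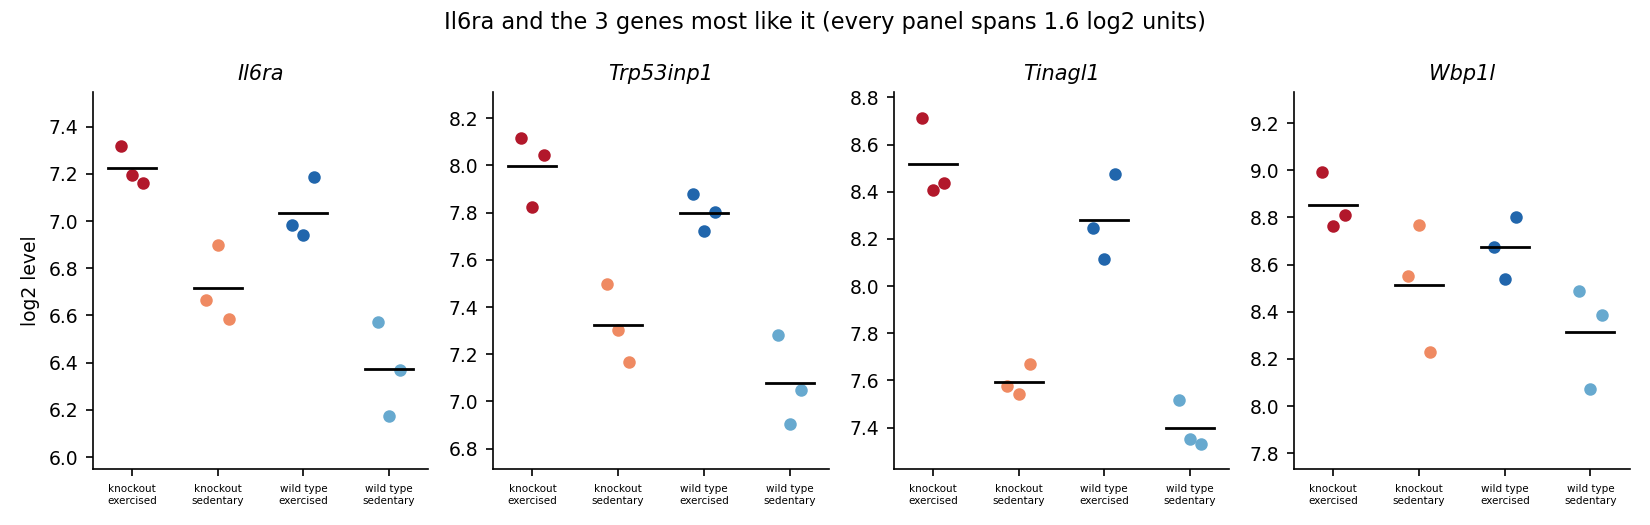
Log2 level (y axis) of Il6ra and of the 3 genes with the highest Pearson correlation with it over the 12 arrays, by group; points are arrays in order of replicate number and bars are group means (n = 3). In all 4 panels the knockout exercised mean is highest and the wild-type sedentary mean is lowest, a likeness that the choice of genes by correlation favours.

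Around the 9 members, the ligands and the other pathway components gave no calls for exercise, whereas some genes listed as STAT3 targets did. Of 10 ligand genes 8 were on the array and 4 were tested; Il6, Osm, Il11 and Ebi3 were too dim on most arrays, so their response could not be read. None of the 4 was called; Ctf1, which encodes cardiotrophin 1, gave -0.09 and its relative Clcf1 -0.08 averaged over genotypes. Of the other receptor chains 2 were tested and 0 called. Cntfr, the ciliary neurotrophic factor receptor gene, had the larger estimate, 0.39 averaged over genotypes (SE 0.11, limma unadjusted p = 0.00421, adjusted p = 0.129). Its levels were 7.17 ± 0.20 in knockout exercised, 6.87 ± 0.12 in knockout sedentary, 7.62 ± 0.16 in wild-type exercised and 7.15 ± 0.37 in wild-type sedentary muscle (SD, n = 3 each). Il27ra gave -0.10.

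Of the other JAK and STAT genes 6 were tested and 0 called, with a median averaged difference of -0.11 beside -0.01 for all tested genes. Stat2, an interferon pathway member, gave -0.31 (limma adjusted p = 0.236) and the kinase gene Tyk2 -0.12. All 5 other SOCS genes were tested and 0 called, with a median of -0.03; Socs6 gave -0.07 and Socs5 0.06. All 13 feedback and adaptor genes were tested and 0 called, with a median of -0.05; the STAT3 inhibitor gene Pias3 gave -0.26 (limma adjusted p = 0.318) and the phosphatase gene Ptpn6 -0.20. At an unadjusted p under 0.05 these 3 lists held 1, 0 and 1 genes averaged over genotypes, both lower, beside 11.2% of all tested genes in either direction.

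Of 20 known STAT3 target genes 19 were tested, and 4 rose averaged over genotypes, beside 1.09% of all tested genes. They were the transcription factor genes Cebpd (1.22, limma adjusted p = 6.15e-05), Cebpb (0.76, limma adjusted p = 0.000463) and Nfil3 (0.72, limma adjusted p = 0.00255), and Bcl2l1, which encodes the survival protein Bcl-xL (0.57, limma adjusted p = 0.000526). The list median was 0.19, against -0.01 for all tested genes, and 12 of 19 estimates were positive. Each of these genes is also known to answer to signals other than STAT3, among them glucocorticoids and stress, and the signal acting here was not tested. The pathway lists were chosen with earlier results of these data known. Counts and medians of a list beside all tested genes are therefore a description and not a test of the list.

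Cebpd read 6.14, 6.49 and 6.33 in knockout exercised, 5.50, 4.99 and 5.14 in knockout sedentary, between 5.81 and 6.18 in wild-type exercised and 5.05, 4.56 and 4.37 in wild-type sedentary muscle. Every exercised array lay above every sedentary array, as in 0.938% of all tested genes. In the knockout 2 of 19 target genes rose, Cebpd by 1.11 and Cebpb by 0.72, beside 0.24% of all tested genes. In wild type 5 of 19 rose, the same 4 as averaged and Junb, beside 0.473%. The difference of exercise effects was called for 0 of 19 target genes and for 0 tested genes. At an unadjusted p under 0.05 that difference was negative for 3 of 19, beside 4.51% of all tested genes in either direction. These counts and the Junb levels below are therefore not a measured difference between genotypes. Junb, an AP-1 transcription factor gene, read 6.59, 6.13 and 6.07 in knockout exercised, 6.26, 6.25 and 6.25 in knockout sedentary, 7.41, 6.36 and 6.97 in wild-type exercised and 5.81, 5.99 and 5.99 in wild-type sedentary muscle. The wild-type exercised arrays were spread over more than 1 log2 unit and all lay above wild-type sedentary, whereas the knockout groups overlapped. Its wild-type difference was 0.98 (SE 0.20, limma adjusted p = 0.0410), and the call was kept in 3 of the 12 fits that left out an array in turn: those without wild-type exercised replicate 2, knockout sedentary replicate 3 or knockout exercised replicate 1. Nfil3 in wild type and Cebpb in the knockout also kept their calls in 3 of 12 such fits each, Bcl2l1 in wild type lost it without wild-type exercised replicate 3, and Cebpd in the knockout lost it without knockout sedentary replicate 2 or knockout exercised replicate 3. Averaged over genotypes Cebpd, Cebpb, Nfil3 and Bcl2l1 were called in 12 of 12. Across all alternatives 1 to 5 STAT3 target genes rose in wild type, 0 to 3 in the knockout and 3 to 6 averaged.

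Of 13 growth hormone and STAT5 genes 9 were tested, and Irs2, which encodes an insulin receptor substrate, was the 1 that rose averaged over genotypes, beside 1.09% of all tested genes. It read 8.77, 8.90 and 8.48 in knockout exercised, 7.02, 7.06 and 7.34 in knockout sedentary, 8.87, 8.52 and 8.53 in wild-type exercised and 7.07, 7.15 and 7.46 in wild-type sedentary muscle. All exercised arrays lay above all sedentary arrays, as in 0.938% of all tested genes (averaged difference 1.49, limma adjusted p = 1.88e-06). The other 8 had averaged estimates that were not called, and the list median was -0.10.

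**Figure D5:**
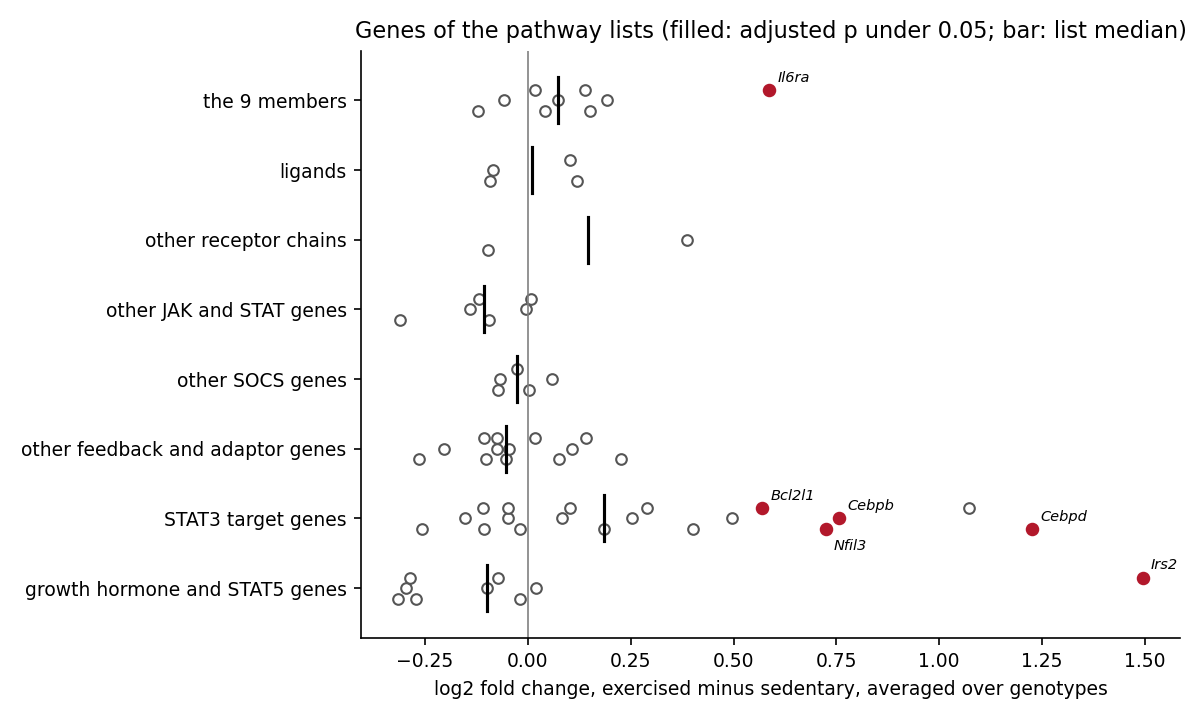
Log2 fold change after exercise averaged over genotypes (x axis, exercised minus sedentary) for every tested gene of the 9 members and of 7 lists of related genes; filled points were called by limma at adjusted p under 0.05 and bars are list medians. Filled points are Il6ra among the members, Cebpd, Cebpb, Nfil3 and Bcl2l1 among the STAT3 targets, and Irs2 among the growth hormone and STAT5 genes.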

How the data were processed

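RNA from 12 plantaris muscles was hybridised to Affymetrix whole-transcript arrays, per the labels' protocols. The authors deposited 1 table of normalized log2 values for 41345 transcript clusters. The log base is inferred from the value range (0.36 to 13.9), and Partek, without a version, is the only program in the submitters' processing notes; background correction and normalization are not given in the sources used here. Of the clusters 23521 have 1 gene symbol in the platform annotation, covering 22180 genes; the cluster with the highest mean stood for a gene.

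The 4 groups were fitted together in limma 3.58.1 (R 4.3.3) with an intensity trend, over 13747 genes above the table median of 4.56 on at least 3 arrays, and each comparison's p-values received a Benjamini-Hochberg adjustment. The fit was tested on simulated data. Members and gene lists were chosen with earlier results of these data known. Text names the 9 members, Ddit4, genes of the 7 pathway lists called in any comparison or else the 2 with the smallest unadjusted p for averaged exercise, and the 3 genes most correlated with a called member; marker genes named beside Il6ra, and all individual arrays mentioned, were chosen after their values were seen. Alternatives changed the filter, centring, normalization, choice of cluster, moderation, array weights, groups fitted and arrays left out. Array identifiers, not coordinates, placed clusters beside their neighbours, since the array's build is not named in the sources used here.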

Additional observations from a re-analysis of the deposited data

How the results depend on the processing

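The rise of Il6ra averaged over genotypes was called under 24 of 24 alternatives, at 0.54 to 0.64 (limma adjusted p 0.00104 to 0.0355). Its rise in wild type was called under 19 of 25, at 0.57 to 0.77 (limma adjusted p 0.00515 to 0.136). The count of members called there, 1 as reported, was 0 when all transcript clusters were tested (limma adjusted p = 0.0648), without moderation of the variances (adjusted p = 0.136, ordinary linear model on the limma fit) and with only the groups compared (limma adjusted p = 0.0588). With each array left out in turn that count ranged from 0 to 1. In the knockout Il6ra was called under 0 of 25 alternatives, at 0.44 to 0.60 (limma adjusted p 0.0977 to 0.369). No other member was called in any of the 7 comparisons under any alternative run. Of 1548 member values under alternatives, 0 called values reversed, 6 lost their call, and 89 uncalled values changed sign. Of the related genes named, Cntfr was called averaged over genotypes under 1 of 24 alternatives, Nfil3 under 23 of 24, and 0 called values reversed. Junb and Nfil3 in wild type were each called under 9 of 25, and Cebpb in the knockout under 10 of 25. Cebpd in the knockout was called under 21 of 25, and Cebpb and Bcl2l1 in wild type under 24 of 25 each. Calls absent above appeared for Junb averaged (1 of 24) and Bcl2l1 in the knockout (2 of 25).

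No paired analysis was possible because the labels give no replicate number shared between groups. With 3 arrays per group, exercise differences in 1 genotype had standard errors from 0.11 for Il6st and Stat3 to 0.32 for Socs2, so small changes in Socs2 in particular could not be read. Values on dim clusters lie near background, and 4 ligand genes could not be tested at all.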

Other observations

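A second, dimmer transcript cluster carries the symbol Cish and was above the table median on only 4 of 12 arrays. It read 3.51, 4.12 and 4.62 in knockout exercised, 4.43, 4.04 and 4.22 in knockout sedentary, 3.67, 4.61 and 6.68 in wild-type exercised and 3.71, 4.56 and 5.21 in wild-type sedentary muscle. The single value of 6.68, on wild-type exercised replicate 3, is far from the other 11 arrays, while the brighter Cish cluster was at its lowest of the 12 arrays on that same array, at 4.74. Of the 8 named genes nearest by identifier to each Cish cluster, 8 lie on the chromosome of Cish. The strand that each cluster reads was not examined. A second Socs3 cluster was below the table median on 12 of 12 arrays. It was read in place of the brighter cluster only in an alternative added after the data were seen. There its exercise difference was -0.39 in the knockout, -0.38 in wild type and -0.38 averaged over genotypes. These estimates are opposite in sign to those of the brighter cluster, and none was called.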
